A study of Mus musculus with 6 samples.

Results

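The 6 genes described here, Aif1, Emr1, Lyz1, Lyz2, Mpeg1 and Lst1, are classic transcripts of the macrophage. They were chosen by symbol as macrophage identity markers, with their response to oxidised low-density lipoprotein (oxLDL) in these same samples already known, and all 6 of the 6 were present among 24054 genes in the deposited tables and among the 11400 genes tested. Emr1 is the older symbol of Adgre1, which encodes the antigen F4/80. Because the choice used the oxLDL contrast, the values of the 6 genes in that contrast are a description and carry no test. Poly(A) RNA was sequenced in bulk from macrophages that were derived from the marrow of wild-type C57BL/6 mice and grown for 7 days in medium conditioned by L929 cells. One group of 3 samples then received oxLDL at 50 µg/ml for 24 hours and the other group of 3 did not. Each group held the numbers 1, 2 and 3, and each title also reads mix, a term left unexplained in the labels. Same-numbered samples are called pairs here. The labels do not say that replicates came from separate animals or cultures, so p-values cover the spread of these samples alone, which may be technical in part.

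Macrophages differentiate from marrow precursors under colony-stimulating factor 1, and their identity is kept by lineage factors, of which PU.1, encoded by Spi1, is the best known. AIF1, also called IBA1, is a calcium-binding protein that bundles actin in membrane ruffles and phagocytic cups, and it is widely used to stain macrophages and microglia. F4/80 is an adhesion G protein-coupled receptor of the macrophage surface. Lysozymes cleave bacterial cell wall peptidoglycan. Lyz2 is the myeloid lysozyme whose locus drives the LysM-Cre mouse, and Lyz1 is its neighbour and near copy, best known from Paneth cells of the gut. MPEG1, or perforin-2, is a pore-forming protein of phagosomes that attacks engulfed bacteria. LST1 is a small leukocyte transmembrane protein with a cytoplasmic inhibitory motif.

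The RefSeq promoter table (build GRCm38.p6) held a promoter for 4 of the 6 genes, and Adgre1 and Lst1 were the others. The 250 bases before the annotated start are shown for these 4, because the lysozyme pair moved together in these samples while Aif1 and Mpeg1 lay at the ends of the range of change. The sequences lie at chr10:117282273-117282522 (- strand), chr10:117292869-117293118 (- strand), chr17:35176053-35176302 (- strand) and chr19:12460520-12460769 (+ strand). Each is written 5′ to 3′ on the strand of the gene and ends at the base before the start. Capitals mark every match, on either strand, to any of 4 motifs searched: AGGAAGT for PU.1, TTGCNNAA for C/EBP, GAAANNGAA for interferon regulatory factors and TGACNNNGC for the antioxidant response element.
Lyz2: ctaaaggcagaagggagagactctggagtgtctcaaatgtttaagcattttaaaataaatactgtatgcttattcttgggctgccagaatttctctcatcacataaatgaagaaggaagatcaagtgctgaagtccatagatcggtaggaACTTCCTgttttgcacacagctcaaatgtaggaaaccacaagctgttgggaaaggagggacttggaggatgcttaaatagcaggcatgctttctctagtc
Lyz1: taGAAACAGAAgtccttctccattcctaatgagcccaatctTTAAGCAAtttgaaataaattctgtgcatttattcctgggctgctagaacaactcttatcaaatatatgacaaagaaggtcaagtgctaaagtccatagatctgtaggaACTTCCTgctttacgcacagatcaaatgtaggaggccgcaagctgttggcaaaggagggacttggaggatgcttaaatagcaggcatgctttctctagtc
Aif1: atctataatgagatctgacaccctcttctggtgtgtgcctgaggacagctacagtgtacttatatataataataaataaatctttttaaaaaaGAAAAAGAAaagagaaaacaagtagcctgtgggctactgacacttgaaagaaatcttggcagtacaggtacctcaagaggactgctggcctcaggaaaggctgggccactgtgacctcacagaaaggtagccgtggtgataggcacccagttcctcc
Mpeg1: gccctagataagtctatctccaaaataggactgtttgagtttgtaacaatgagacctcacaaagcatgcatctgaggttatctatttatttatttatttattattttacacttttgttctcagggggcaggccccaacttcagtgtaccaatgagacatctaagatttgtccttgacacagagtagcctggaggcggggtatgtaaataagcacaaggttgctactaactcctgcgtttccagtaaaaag

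Both lysozyme promoters carried the PU.1 letters on the opposite strand at the same place, 100 to 94 bases before the start. Lyz1 also had a C/EBP match 209 to 202 bases and a match to the interferon regulatory factor letters 248 to 240 bases before the start, and the Lyz2 window held neither. Aif1 held the interferon regulatory factor letters 157 to 149 bases before the start, and Mpeg1 held none of the 4 motifs. Over 32851 RefSeq promoter windows of the same length, 7.69% held the PU.1 letters, 9.56% the C/EBP letters, 7.13% the interferon regulatory factor letters and 10.2% the antioxidant response element letters. No 2 of these matches overlapped. Compared base by base without gaps, the Lyz1 and Lyz2 windows were the same at 60.8% of 250 positions. Over the last 100 bases before the start they were the same at 92%, and the final 50 bases were identical.

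Every gene had at least 393 counts in each sample except Aif1 with oxLDL, which had 24 to 135. Totals were 13546572 to 15559310 expected counts per sample, and the 6 genes together took 2.46% and 3.16% of the counts in untreated samples 2 and 1, and 0.952% to 1.68% in the other 4 samples. Levels below are CPM, read counts scaled to a common library size with TMM factors. Fold changes are log2 values of oxLDL against untreated from edgeR's quasi-likelihood fit, in which the replicate number was a block. A gene counted as past the threshold in that fit when its Benjamini-Hochberg adjusted p was below 0.05. Samples numbered 3 stood apart from those numbered 1 and 2. The deviations from the group means correlated at r = 0.66, 0.45 and 0.70 across genes within pairs 1, 2 and 3. Between numbers 1 and 2 they also correlated positively, at 0.63 (untreated 2, oxLDL 1) and 0.20 (untreated 1, oxLDL 2). Sample 3 of either group correlated negatively with samples 1 and 2 of the other group (-0.76 to -0.37). Deviations sum to 0 within a group, so these negative values follow in part from the positive value of pair 3 and are not separate evidence. Markers of the labelled cell type were present in every sample. All 8 macrophage markers checked beside the 6 genes (Csf1r, Cd68, Mertk, Fcgr1, Itgam, Cd14, Tyrobp and Fcer1g) were detected, with a summed level of 5454 to 8503 CPM untreated and 3995 to 5066 CPM with oxLDL. The sum hides unlike directions, such as Fcgr1 lower and Cd68 higher with oxLDL, and all 8 stand again in the list of other macrophage markers below.

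Aif1, the actin-bundling marker, showed the largest difference of the 6. Untreated samples 1, 2 and 3 held 211, 182 and 34.1 CPM of it, and their oxLDL partners held 9.08, 1.60 and 3.33 CPM. Untreated sample 3 was far below the other untreated samples, yet it was above all oxLDL samples, so the groups did not overlap. Group means were 142 ± 94.9 CPM untreated and 4.67 ± 3.92 CPM with oxLDL (SD, n = 3 per group), and the fitted log2 fold change was -4.82 ± 0.71 (SE). The log2 ratios in pairs 1, 2 and 3 were -4.52, -6.71 and -3.31. In pair 2 the oxLDL sample held 24 reads against 2528 untreated, so what remained was 0.88% of the untreated level. The corresponding shares were 4.30% in pair 1 and 9.75% in pair 3.

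Emr1, the transcript of F4/80, was lower with oxLDL by very unequal amounts. Its level was 9153, 6570.3 and 3088 CPM in untreated cells numbered 1, 2 and 3, against 1352, 451 and 2499 CPM under oxLDL. Pairs 1 and 2 were 6.77-fold and 14.6-fold lower with oxLDL, and pair 3 was 1.24-fold lower. The groups did not overlap, but only a narrow gap parted untreated sample 3 from oxLDL sample 3. The order of the samples also turned: number 3 was the lowest of the untreated samples and the highest of the oxLDL samples. The fitted log2 fold change was -2.36 ± 0.81 (SE), with group means of 6271 ± 3043 and 1434 ± 1027 CPM (SD, n = 3 per group). With pair 3 left out it was -3.31, and with pair 2 left out -1.53.

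Lst1, the leukocyte membrane protein, followed the order of Aif1 among untreated samples. Its untreated levels were 169, 145 and 59.3 CPM for numbers 1, 2 and 3, and its oxLDL levels were 41.6, 26.7 and 28.4 CPM. The groups did not overlap, and the oxLDL samples lay closer together than the untreated ones, with the highest 1.56-fold above the lowest against 2.85-fold. The fitted log2 fold change was -1.84 ± 0.29 (SE), and the pairs gave -2.02, -2.43 and -1.06. Pair 3 again had the smallest ratio, as it had for Aif1 and Emr1.

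**Figure D1:**
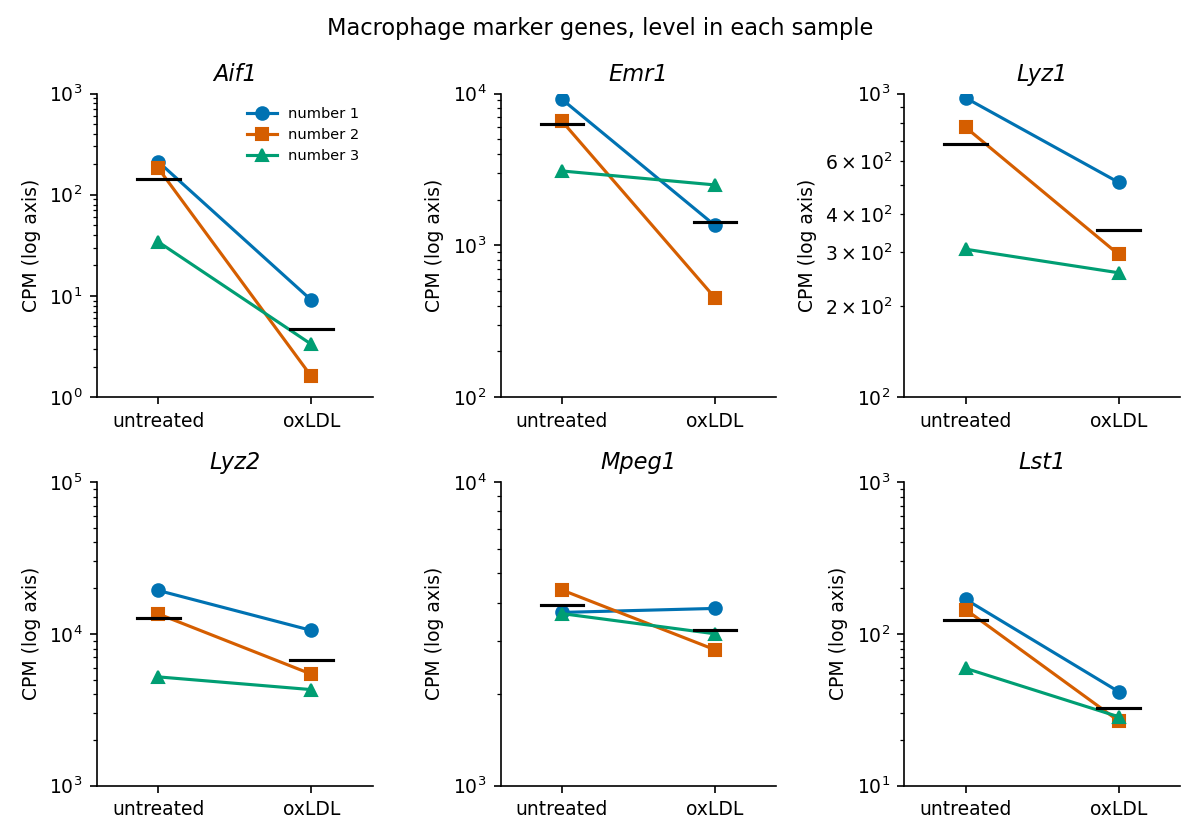
Level of each of the 6 genes in CPM (log axis) in untreated and oxLDL samples, with lines joining samples of the same number and black bars at the group means. Aif1, Emr1 and Lst1 have no overlap between groups, and number 3 is the lowest untreated sample for all genes shown, including Mpeg1, where it lies close to number 1.

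Both lysozymes overlapped between groups, and Lyz2 was the most abundant of the 6 genes. For Lyz2, untreated cells numbered 1, 2 and 3 gave 19294, 13520.4 and 5204 CPM, and treated cells gave 10531, 5426 and 4292 CPM. The untreated sample 3 lay below oxLDL samples 1 and 2, although within every pair the oxLDL sample was the lower one. The fitted log2 fold change of Lyz2 was -0.82 ± 0.30 (SE), with -0.87, -1.32 and -0.28 in pairs 1, 2 and 3. Lyz1 measured 967, 774 and 307 CPM untreated and 510, 295 and 257 CPM with oxLDL. Its log2 fold change of -0.86 ± 0.26 and its ratios of -0.92, -1.39 and -0.26 lay close to those of Lyz2. The lowest untreated sample of Lyz1, number 3, was below oxLDL sample 1 and above the other oxLDL samples.

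The values of the lysozyme pair are not independent. Of the 6 genes, Lyz1 and Lyz2 were those whose expected counts were not whole in 6 of 6 samples, which means that RSEM divided reads between genes, while the other 4 genes had whole counts in every sample. In the GENCODE vM21 transcripts, 195 of the 1214 windows of 50 bases of Lyz1 (16.1%) also stood in Lyz2, and 0 of its 1114 windows of 150 bases, the length of 1 read, did. Lyz1 took between 4.62% and 5.65% of the counts of the pair in the 6 samples. That share was 4.77% and 4.62% in pair 1, 5.41% and 5.16% in pair 2 and 5.57% and 5.65% in pair 3, untreated first, so number 1 had the lowest share and number 3 the highest under both treatments. The sum of both, which does not depend on the division between them, came to 20261, 14294 and 5511 CPM for untreated numbers 1, 2 and 3, against 11041, 5721 and 4548 CPM under oxLDL. Alone, Lyz2 made up 0.515% to 1.82% of all counts untreated and 0.438% to 1.08% with oxLDL.

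Mpeg1, the phagosomal pore former, differed least. It measured 3720 CPM in untreated sample 1, 4409 in sample 2 and 3687 in sample 3, and 3834, 2803 and 3163 CPM with oxLDL. The groups overlapped, because oxLDL sample 1 lay above untreated samples 1 and 3. The log2 fold change was -0.28 ± 0.24 (SE), and pair 1 had a ratio just above 0 (0.04) against -0.65 and -0.22 in pairs 2 and 3. Mpeg1 was also the steadiest of the 6 among untreated samples, where its highest level was 1.196 times its lowest, against 2.85 to 6.19 times for the other 5 genes.

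Over the 6 genes, 3 had groups that did not overlap and were lower with oxLDL, against 10.6% of all tested genes, and 5 were lower in all 3 pairs, against 27.0% of all tested genes. The fit called 2 of the 6 lower, Aif1 and Lst1, while it called 3.98% of all tested genes lower and 1.91% higher (5.89% in either direction). Aif1 lost its call without the filter on low counts, and DESeq2 with the block called 4 of the 6 lower, adding Lyz1 and Lyz2, against 10.1% of all tested genes. Nothing is read from these counts, since the genes were picked with this contrast known. Their median log2 fold change was -1.35, and that of all tested genes was 0.01. In bulk RNA, fewer cells of a type and less RNA per cell cannot be told apart.

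**Figure D2:**
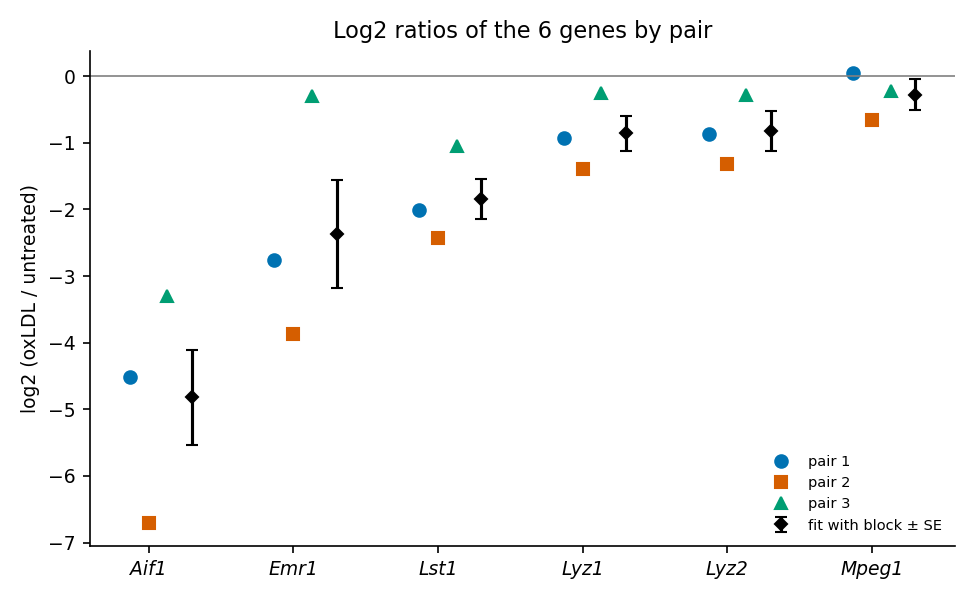
Log2 ratio of oxLDL to untreated for each gene in pairs 1, 2 and 3, with the fitted log2 fold change and its SE as black diamonds. Ratios run from -6.71 for Aif1 in pair 2 to 0.04 for Mpeg1 in pair 1, and pair 3 has the ratio nearest to 0 for every gene but Mpeg1.

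Per length, Emr1 and Mpeg1 changed places between treatments by group mean, and the order of the other genes stayed the same. CPM were divided by the length in kilobases of the longest protein-coding transcript in GENCODE vM21, a level that could be set for 10987 genes (96.4% of those tested). In untreated cells Lyz2 stood at 9630 ± 5382 CPM per kb (SD, n = 3), the rank of 2 among these genes by group mean. It was followed by Emr1 (1937 ± 939.9, rank 13), Mpeg1 (909 ± 94.1, rank 31), Lyz1 (541 ± 269, rank 88), Lst1 (299 ± 139, rank 185) and Aif1 (163 ± 108, rank 374). Over the 3 untreated samples, Lyz2 did not overlap with Emr1 and Mpeg1 did not overlap with Lyz1, while the ranges of Emr1 and Mpeg1, of Lyz1 and Lst1, and of Lst1 and Aif1 overlapped. With oxLDL, Lyz2 still led with 5129 ± 2526 CPM per kb (rank 5), and Mpeg1 came next at 754 ± 121 (rank 41). Emr1 was at 443 ± 317 (rank 106), Lyz1 at 280.3 ± 108 (rank 172) and Lst1 at 77.7 ± 19.7 (rank 697). Aif1 went to rank 7187 with 5.34 ± 4.48 CPM per kb. With oxLDL the ranges of Mpeg1 and Emr1 and of Emr1 and Lyz1 overlapped, and those of Lyz1, Lst1 and Aif1 did not. In samples numbered 3, Emr1 stood above Mpeg1 both untreated (954 against 851 CPM per kb) and with oxLDL (772 against 730).

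A measure that the choice of the genes did not use is the difference between the numbered pairs at equal treatment. It was tested as the replicate number term (2 degrees of freedom) of the same fit, which called 7.75% of all genes tested. With edgeR 0 of the 6 genes passed (adjusted p between 0.117 for Lyz2 and 0.922 for Mpeg1), and 2 of 6, Lyz1 and Lyz2, had an unadjusted p under 0.05. The likelihood ratio test of DESeq2 called the same 2 genes and 19.3% of all genes. With limma on the deposited CPM 0 of the 6 passed, and 989 of all genes tested did, against 883 with edgeR. Since Lyz1 and Lyz2 share reads, they are not separate evidence. Untreated sample 1 stood above untreated sample 3 by 6.19-fold for Aif1, 3.71-fold for Lyz2, 3.15-fold for Lyz1, 2.96-fold for Emr1 and 2.85-fold for Lst1, and by 1.01-fold for Mpeg1.

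Aif1 and Lst1 lie side by side in the class III region of the major histocompatibility complex, on chromosome 17, with no protein-coding gene between them in RefSeq. A list of genes of this region, fixed as older and newer symbols and without these 2, had 17 tested members. With edgeR 0 of the 17 passed in either direction (5.89% of all genes did) and 1 had an unadjusted p under 0.05 (29.0% of all genes did). Their median log2 fold change was -0.08. Prrc2a, the coding neighbour on the other side of Aif1, went from 436 ± 91.4 to 341 ± 37.4 CPM (-0.34 ± 0.14), short of the threshold. Clic1, which encodes an intracellular chloride channel protein, was at -0.31 ± 0.13. The value closest to that of Lst1 was that of Tnf, the cytokine gene on its far side, at -1.36 ± 0.29 (edgeR adjusted p = 0.0675; chosen for naming after its value was seen). DESeq2 with the block called 1 of the 17, which was lower, and 16.3% of all genes in either direction. Ltb, the coding gene next to Lst1, lay below the count filter, at 3.75, 2.95 and 0.205 CPM for untreated numbers 1, 2 and 3 and 0.267 to 0.362 CPM with oxLDL.

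**Figure D3:**
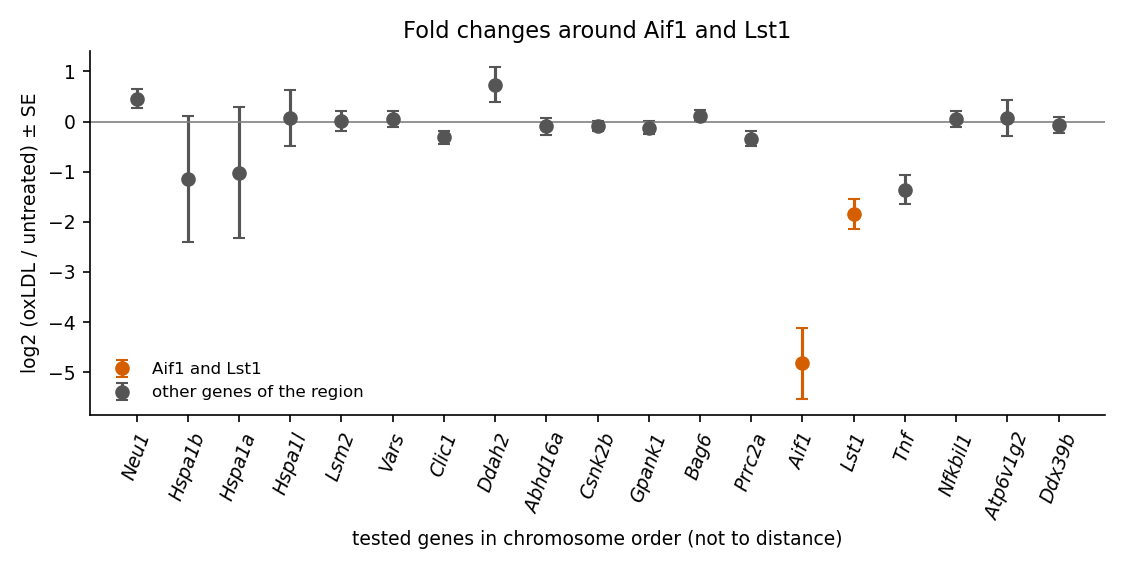
Log2 fold change of oxLDL over untreated with its SE for Aif1, Lst1 and the 17 other tested genes of the region, in their order along chromosome 17 with even spacing. Aif1 (-4.82) and Lst1 (-1.84) are the lowest points, and 0 of the other 17 genes passed the threshold.

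The nearest coding neighbours of the other genes were looked up in the same way, a comparison added after the data were seen. Vav1, which encodes a Rac activator of blood cells and stands before Emr1, gave 507, 431 and 473 CPM for untreated numbers 1, 2 and 3, against 175, 163 and 336 CPM under oxLDL. Its groups did not overlap, and as for Emr1 the oxLDL sample 3 was the highest of its group, but at -1.14 ± 0.25 it missed the threshold (edgeR adjusted p = 0.0695). Cpsf6, an RNA cleavage factor gene next to Lyz1, was at -0.28 ± 0.11 and missed the threshold. On the other side of Lyz2, the lysozyme-like 9530003J23Rik had 0 counts in all samples. Dtx4, next to Mpeg1, was at 0.81 ± 0.21 (edgeR adjusted p = 0.0839), short of the threshold.

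Of 20 tested members of a list of other macrophage markers, 2 fell, 0 rose and 18 did not pass, against 3.98% of all tested genes called lower and 1.91% higher. Their median was -0.63 on the log2 scale, and 16 of the values were negative, as were 48.6% of those of all genes. Fcgr1, the high-affinity IgG receptor, and Cx3cr1, the fractalkine receptor, were the 2 that fell (-3.98 ± 0.44 and -1.81 ± 0.29). Fcgr1 went from 486 ± 108 to 32.9 ± 15.2 CPM (SD, n = 3 per group; edgeR adjusted p = 0.0287). DESeq2 with the block called 9 of the 20, all lower, against 10.1% of all tested genes that it called lower. The groups did not overlap in 10 of the 20, of which 9 were lower with oxLDL (10.6% of all tested genes were) and 1 was higher (10.5% were). Those lower included, short of the threshold, the complement genes C1qa (-3.38 ± 0.79), C1qb (-2.69 ± 0.50) and C1qc (-2.53 ± 0.51), the sialic acid receptor Siglec1 (-3.04 ± 0.71) and Itgam, the integrin chain CD11b (-2.14 ± 0.41). The one higher was the lysosomal marker Cd68 (0.62 ± 0.25), also short of the threshold. These 6 genes were named after their values were seen.

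Transcription factors of the macrophage lineage were called in both directions. Of 11 tested, 3 fell, 1 rose and 7 did not pass, against 3.98% of all genes called lower and 1.91% higher, and the median log2 fold change was -0.39. DESeq2 with the block called 5 of the 11, 4 lower and 1 higher, against 16.3% of all tested genes in either direction. Spi1, which encodes PU.1, fell (-1.13 ± 0.14), as did the factor gene Maf (-2.25 ± 0.28) and so did Nr1h3, the gene of the oxysterol receptor LXR alpha (-1.23 ± 0.20). The groups overlapped for Maf and Nr1h3 but not for Spi1. Cebpa, a myeloid C/EBP factor, rose from 31.2 ± 4.56 to 52.5 ± 3.52 CPM, by 0.76 ± 0.13 (edgeR adjusted p = 0.0483).

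**Figure D4:**
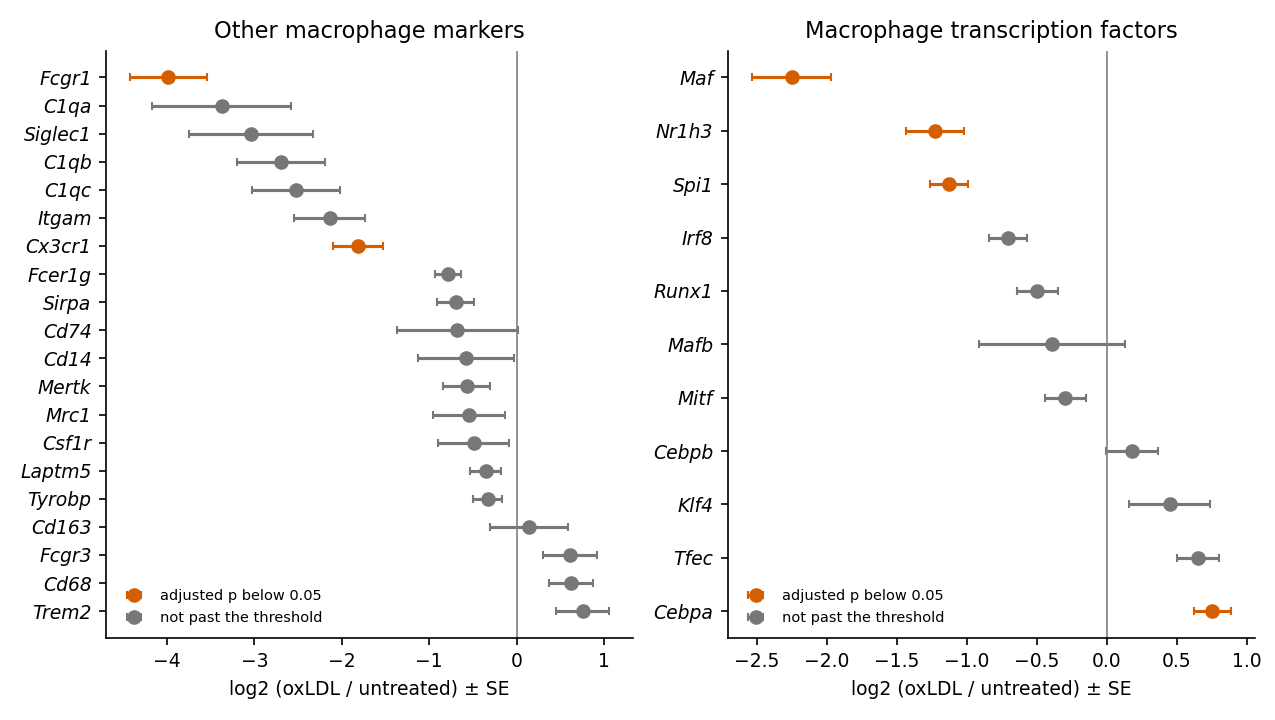
Log2 fold change of oxLDL over untreated with its SE for 20 other macrophage markers (left) and 11 macrophage transcription factors (right), with genes past the threshold in orange. Fcgr1 (-3.98) and Maf (-2.25) are the lowest of their lists, and Cebpa (0.76) is the only gene past the threshold on the higher side.

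Genes related to each of the 6 by role were counted in lists, to be read against the 3.98% of all tested genes that edgeR called lower and the 1.91% it called higher, and the 16.3% that DESeq2 called in either direction. For Aif1, the list of actin and Rac genes had 13 tested members, of which 4 fell, 0 rose and 9 did not pass, with a median of -0.99. Those that fell were Actb (6040.1 ± 3355 to 1663 ± 596 CPM), the actin-organising Coro1a (-1.67 ± 0.22), Cotl1 (-1.33 ± 0.17) and Pfn1 (-0.98 ± 0.17). The groups overlapped for Coro1a and Cotl1 but not for Actb and Pfn1. DESeq2 with the block called 11 of the 13, 9 lower and 2 higher. Among genes of actin bundlers, none of which passed, Lcp1 (L-plastin) was at -1.02 ± 0.23, Pls3 (T-plastin) at 1.17 ± 0.37 and Fscn1 (fascin) at 1.53 ± 0.37, and these 3 were named after their values were seen. The groups overlapped for all 3, and Fscn1 was scarce, at 0.409 to 2.87 CPM untreated and 1.41 to 5.64 CPM with oxLDL. For Lst1, inhibitory-motif receptors and their phosphatases had 10 tested members, of which 3 fell (Lair1, Clec12a and the phosphatase Ptpn6), 1 rose (Cd300a) and 6 did not pass. Their values were -1.26 ± 0.11, -2.61 ± 0.27, -1.72 ± 0.16 and 0.93 ± 0.13, and the median of the list was -1.02. The groups overlapped for Ptpn6 and Cd300a but not for Lair1 and Clec12a. DESeq2 with the block called 8 of the 10, 7 lower and 1 higher.

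Among adhesion G protein-coupled receptors, the family of F4/80, 7 were tested. Gpr126 fell from 83.2 ± 54.99 to 11.2 ± 5.21 CPM (-2.74 ± 0.24, edgeR adjusted p = 0.0286), and the other 6 did not pass. Emr4 and Cd97 encode, like Emr1, receptors with EGF-like repeats. Emr4 was at -3.64 ± 0.93, short of the threshold (14.4, 5.18 and 0.0683 CPM for untreated numbers 1, 2 and 3, against 1.01, 0.134 and 0.217 CPM under oxLDL), and it was named after its value was seen. Cd97 was at -0.11 ± 0.39, with pair ratios of 0.50, 0.32 and -1.28 and a value of 0.21 without the block, so its sign differed between pairs and fits. Lphn2 was at 0.32 ± 0.13. The median of the family was 0.27, and DESeq2 with the block called 3 of the 7, 2 lower and 1 higher. Antimicrobial genes, listed beside the lysozymes, had 11 tested members, of which 1 fell and 10 did not pass, with a median of -0.81, while DESeq2 with the block called 8 of the 11, 6 lower and 2 higher. The one that fell was Lcn2, a siderophore-binding protein (-2.03 ± 0.14). Its group values of 322 ± 548 and 79.4 ± 135 CPM had SDs above the means, because nearly all of it lay in the samples numbered 3. Lcn2 was at 7.03, 3.82 and 955 CPM for untreated numbers 1, 2 and 3 and 1.68, 0.935 and 236 CPM with oxLDL, and its groups overlapped. With pair ratios of -1.61, -2.90 and 0.80, which differed in sign, the oxidase subunit Cybb (-1.28 ± 0.81) did not pass. Nor did the itaconate synthase gene Irg1, whose sign depended on the block: it was at -0.56 ± 0.33 with the block and 0.24 ± 2.19 without it, with pair ratios of -1.12, -0.85 and 0.28. For Mpeg1, 2 other pore-forming proteins were tested, and the pyroptosis effector Gsdmd fell from 91.6 ± 13.2 to 49.9 ± 1.54 CPM, while Dfna5 (0.69 ± 0.36) did not pass.

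These list counts rest on the pairing and on which pairs are used. Without the block, edgeR called 0 of 11400 genes (1674 had an unadjusted p under 0.05), and so 0 members of any of these lists. With the block it also called 0 genes without pair 1 or without pair 2 and 3342 without pair 3.

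The genes whose profiles over the 6 samples came nearest to each of the 6 were found by the root mean square (RMS) difference of centred log2 CPM. For Aif1 these were Fcrl5, an Fc receptor-like gene of the immunoglobulin family (RMS 0.48), and Gm15987 (0.49), annotated as antisense, whose reads cannot be parted from those of the other strand since the strand setting of the counting is not given. Fcrl5 measured 91.2, 37.6 and 5.46 CPM for untreated numbers 1, 2 and 3, against 2.49, 0.534 and 0.796 CPM under oxLDL. For Emr1 the nearest were C4b (0.28) and Hif3a (0.34), both at low levels, from 7.85 CPM down to 0.2003 for C4b and from 5.46 down to 0.0668 for Hif3a. Lyz1 had Melk (0.11) and Lyz2 (0.12) nearest, and Lyz2 had Lyz1 (0.12) and Sgpp1 (0.17). Mpeg1 had Zfp868 and Clk1 (0.064 and 0.066), and Lst1 had Slc25a10 (0.15) and Ms4a4b (0.18). Slc25a10, the mitochondrial dicarboxylate carrier, measured 157, 114 and 43.0 CPM untreated and 27.9, 22.0 and 22.5 CPM with oxLDL, an order of samples like that of Lst1. Likeness over 6 samples of 2 groups is a description only.

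Markers of other cell types moved beside these genes in part. The 10 neutrophil markers in the table (of 11) summed to 190 to 265 CPM untreated and 77.4 to 108 CPM with oxLDL. Most of that was 1 gene, Csf3r, at 174, 181 and 255 CPM for untreated numbers 1, 2 and 3 and 101, 73.3 and 98.2 CPM with oxLDL. The 6 monocyte markers summed to 119 to 320 CPM and 34.7 to 120 CPM. Most of the monocyte sum was Ccr2, which was at 288, 284 and 16.5 CPM for untreated numbers 1, 2 and 3 and at 107, 25.5 and 8.18 CPM with oxLDL. The 8 osteoclast markers summed to 33.9 to 41.2 CPM untreated and 57.7 to 139 CPM with oxLDL. Of the 4 that were tested, 2 passed the threshold in opposite directions, against 3.98% of all tested genes called lower and 1.91% higher. Atp6v0d2, which rose (2.18 ± 0.25), was at 9.83, 22.2 and 11.6 CPM for untreated numbers 1, 2 and 3 and 53.2, 132 and 33.2 CPM with oxLDL, while Acp5, which fell (-2.72 ± 0.34), was at 20.9, 12.8 and 8.60 CPM and then 2.29, 1.47 and 2.39 CPM. The 7 mast cell or basophil markers summed to 3.00 to 22.9 CPM and 23.5 to 36.5 CPM. Nearly all of this was Kit, at 2.66, 7.56 and 21.9 CPM for untreated numbers 1, 2 and 3 and 23.2, 26.2 and 36.3 CPM with oxLDL, while each of the other 6 was below 0.5 CPM in every sample and Tpsb2 was at 0. The part of these markers in the values of the 6 genes was not tested. The 8 markers of fibroblasts or stroma summed to at most 2.18 CPM in any sample, with Pdgfra at 0, and the 7 erythroid markers to at most 0.409 CPM, with 4 of them at 0. Dendritic cell markers (8) summed to 3.70 to 15.7 CPM over the 6 samples, T or NK cell markers (8) to 4.92 to 31.2 CPM and megakaryocyte markers (5, Gp1bb at 0) to 12.7 to 24.8 CPM. B cell markers (5 of 6 in the table, Pax5 at 0) summed to 3.48 to 38.0 CPM untreated and 1.74 to 9.55 CPM with oxLDL. Nearly all of this was Cd79b, at 37.7, 22.4 and 3.07 CPM for untreated numbers 1, 2 and 3 and 9.28, 5.01 and 1.52 CPM with oxLDL. As lower, edgeR called 1 of 6 tested neutrophil markers, 1 of 5 tested monocyte markers and the 1 tested B cell marker, against 3.98% of all tested genes. None of the tested dendritic, T or NK, mast cell or megakaryocyte markers passed.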

How the data were processed

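Bulk poly(A) RNA of 6 samples in 2 groups of 3 was analysed, with group and number read from each title. The first table the authors deposited holds expected counts of RSEM, going by its name. The submitters' processing notes list Bowtie2 2.1.0, RSEM 1.2.15 and edgeR, and the human build hg19, although the tables carry mouse symbols, so gene coordinates are not tied to the counts. The second deposited table holds a normalised signal, CPM of TMM-scaled library sizes per the file's name. It is whole reads times a constant (100% whole within 0.005), and at least 99.9% of them equal the rounded expected counts. edgeR on these reads, an alternative chosen after seeing the data, called 672 genes, the number called from the counts.

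Expected counts were rounded, filtered with filterByExpr (minimum count 10, minimum total 15) and scaled with TMM. The test was edgeR 4.0.16 (quasi-likelihood, robust, R 4.3.3) with group and replicate number as terms and Benjamini-Hochberg adjustment over 11400 genes. SE came from the fold change and F. Log2 CPM used a prior count of 2. DESeq2 1.42.0 and limma 3.58.1 (log2 of deposited CPM plus 2) were alternatives, beside a fit without the block, RLE scaling, no filter and each pair left out. The pipeline was tested on simulated data. The numbers were taken to pair the samples, since each same-numbered correlation of deviations exceeded 0.1. That limit cannot tell numbers 1 and 2 apart, since exchanging them passes it too. Untreated sample 2 and oxLDL sample 1 correlated at 0.63, and untreated sample 1 and oxLDL sample 2 at 0.20.

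The 6 genes and the gene lists were chosen with earlier results of these data known. Named list genes are those past the threshold (at most 4 by smallest p) or, with fewer than 2, also the 2 with the highest mean CPM, and others are marked. The likeness rule names the 2 nearest genes. Promoters are from RefSeq (GRCm38.p6) and transcripts from GENCODE vM21.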

Additional observations from a re-analysis of the deposited data

How the results depend on the processing

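With the block kept, the number of genes called for oxLDL was 672 (218 higher, 454 lower), 689 with RLE scaling, 791 without the filter on low counts and 769 with limma on the deposited CPM. It was 0 with no replicate block (1674 genes with an unadjusted p under 0.05) and 1853 in DESeq2 with the replicate block. Leaving out one pair at a time gave 0 to 3342 genes: 0 without pair 1 (1612 unadjusted), 0 without pair 2 (1611 unadjusted) and 3342 without pair 3. The number term called 883 genes, 2195 with DESeq2, and 10 (without pair 3) to 892 (without pair 2) with one pair left out, with 167 without pair 1. The log2 fold change of each of the 6 genes stayed negative under all 9 alternatives. The alternatives refit the same samples or part of them, for genes chosen with this contrast known, so the constant sign is a description only. The fits called 0 of the 6 without the block (or without pair 1 or pair 2), 1 without the low-count filter, 4 with DESeq2 and 5 without pair 3. The size of the values depended on the pairs used: -3.31 to -1.53 for Emr1 and -0.44 to -0.09 for Mpeg1. For Lyz1 the range was -1.15 to -0.59, for Lyz2 -1.09 to -0.58 and for Lst1 -2.22 to -1.54. Aif1 ran from -5.39 to -3.99. The cause of these shifts was not tested. Depth limits mainly Aif1 with oxLDL, at 24 to 135 counts.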
